A study of Homo sapiens with 24 samples.

Results

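Zinc transporters, metallothioneins and the zinc-sensing transcription factor MTF1 form a family of genes that set how much zinc a cell takes up, stores and exports. The genes were taken by a rule on symbols that uses no measured value: SLC39A or SLC30A followed by digits, MT1 followed by a letter, MT2A, MT3 and MTF1. The rule itself was set with earlier results of these data known. Of 26346 genes in the deposited tables, 36 met this rule. They were 14 SLC39A (ZIP) genes, 10 SLC30A (ZnT) genes, 11 metallothionein genes and MTF1.

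ZIP proteins bring zinc into the cytosol from outside the cell or from organelles, and ZnT proteins move it out of the cytosol, across the plasma membrane or into vesicles. Metallothioneins are small cysteine-rich proteins that bind zinc and copper, and MTF1 senses free zinc and switches on metallothionein genes and SLC30A1 through metal response elements. Normal prostate secretory cells are known for very high zinc and for secreting citrate, and prostate cancers lose much of this zinc.

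The libraries were polyA RNA sequencing of human cell lines, 24 in all, in 12 groups of 2. VCaP, a prostate cancer line whose ERG gene is driven by a TMPRSS2 fusion, carried a control shRNA (shCt), shERG or shARID1A under puromycin for 8 days. LNCaP, a prostate cancer line, carried an empty vector (Empty), ERG or ETV1, both ETS-family transcription factors, under blasticidin for 4 days. SW13, labelled an adrenal carcinoma line, carried Empty or V5-tagged ERG under blasticidin, together with a puromycin-resistant construct for GFP, BRG1 (the SMARCA4 product, an ATPase of BAF chromatin remodelling complexes) or its ATPase mutant BRG1-K785R, for 2 days. The protocol text names luciferase where the titles name GFP, and GFP is used below. All cells had 48 h with lentivirus. Duplicates were separate infections, selections and cultures of 1 line, so p-values measure the spread between such duplicates, and each target had 1 shRNA or construct group. ARID1A is a BAF subunit, so the comparisons ask how the zinc genes respond to an ETS factor and to changes in BAF subunits.

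Library totals ran from 19754265 to 41996681 counted reads. Levels are CPM, the counts scaled to a fixed library total, and the 2 values given for a group are its libraries 1 and 2. The targeted genes matched the labels. In VCaP, ERG read 330.4 and 354 CPM with shCt, 80.99 and 87.9 with shERG and 242 and 238 with shARID1A. ARID1A read 251 and 249.8 CPM with shCt, 234 and 247 with shERG and 71.9 and 75.3 with shARID1A. ETV1 in LNCaP went from 568 and 590.5 CPM with Empty to 3749 and 3626 with ETV1, and ERG from 0.277 and 0.619 with Empty to 996 and 958 with ERG. SMARCA4 in SW13 went from 31.4 and 25.5 with GFP Empty to 2149.7 and 2201 with BRG1 Empty. ERG in SW13 was at most 0.226 CPM with Empty, and with ERG it was at 1474 and 1587 beside GFP, 1609 and 1585 beside BRG1-K785R and 1859 and 2148 beside BRG1. The prostate luminal markers KLK2, KLK3, TMPRSS2, FOLH1 and HOXB13 were present in every VCaP and LNCaP library. The 6 adrenal cortex markers together reached 0.318 CPM in SW13 GFP Empty, below their 0.618 in VCaP shCt and 4.94 in LNCaP Empty. Changes are log2 changes ± SE from edgeR fits that scale libraries by TMM. Library totals as the scale moved the median of all genes by 0.18 (shERG against shCt), -0.12 (shARID1A against shERG), 0.18 (ERG beside BRG1-K785R), 0.13 (BRG1 against GFP), 0.21 (BRG1 against BRG1-K785R) and -0.23 (the ERG effect beside BRG1 minus that beside BRG1-K785R), and by less than 0.1 in the others. In bulk samples fewer cells of a type and less RNA per cell cannot be told apart.

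Metallothionein genes are close copies, so their sequences decide how far single reads can separate them. The coding sequences of the 3 most abundant in VCaP, taken from GENCODE 29 on GRCh38, are shown with capitals at the bases that differ from MT2A:
MT2A: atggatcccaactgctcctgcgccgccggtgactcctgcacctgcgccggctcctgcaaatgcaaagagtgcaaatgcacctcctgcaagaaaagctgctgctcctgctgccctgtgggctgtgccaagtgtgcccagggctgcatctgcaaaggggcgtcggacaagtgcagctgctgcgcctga
MT1E: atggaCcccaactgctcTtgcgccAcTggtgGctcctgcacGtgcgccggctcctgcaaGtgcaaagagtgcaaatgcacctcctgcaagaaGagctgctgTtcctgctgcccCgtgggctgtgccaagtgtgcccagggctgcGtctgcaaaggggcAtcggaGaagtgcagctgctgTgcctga
MT1X: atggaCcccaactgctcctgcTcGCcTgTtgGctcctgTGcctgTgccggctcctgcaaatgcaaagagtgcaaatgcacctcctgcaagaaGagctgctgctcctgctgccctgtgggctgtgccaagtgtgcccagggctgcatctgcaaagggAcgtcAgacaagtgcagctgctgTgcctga

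Each coding sequence is 186 bases, and MT1E and MT1X each differ from MT2A at 14 of them (92.5% identity). Most of the MT1X differences lie near its start, so some coding windows of 75 bases differ from MT2A at few bases. The shares below count exact matches only, over all annotated transcripts of a gene. Of all 75-base windows in their transcripts, none of MT2A and MT1F, 1.43% of MT1E and 5.73% of MT1G occur exactly in another gene's transcripts. For MT1X the share was 14.4%, of which 12.9% was with the overlapping gene AC026461.1. Among transporters SLC39A1 stood apart, with 56.3% of its windows shared, 52.7% with AL358472.7 and 3.55% with its neighbour CREB3L4. How the counting treated strand and overlaps is not stated in the labels, so SLC39A1 and MT1X values may include or lack reads of these partners.

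The control groups differed in which zinc genes they used. Per kilobase of the deposited gene length (RPKM), and with SLC39A7 left aside, the most abundant transporter in VCaP shCt was SLC39A6, an importer known as LIV-1, at 193 and 186. MT2A followed at 80.99 and 80.9 RPKM, with the vesicular exporter SLC30A4 just below at 79.5 and 79.1. SLC39A1, the main plasma membrane importer described in prostate, came next at 63.8 and 61.4 RPKM. In LNCaP Empty the order began with SLC39A6 at 113 and 113 RPKM, SLC39A10, its binding partner, at 86.1 and 81.1 and SLC30A4 at 49.7 and 46.2. SW13 GFP Empty led with SLC39A1 at 78.99 and 81.8 RPKM and SLC39A6 at 66.9 and 67.6, with SLC39A10 far lower at 24.02 and 27.01. SLC39A7, which releases zinc from the endoplasmic reticulum, is understated on this scale, because its deposited length of 14724 bases is long for its transcripts. Those transcripts hold 2909 different windows of 75 bases. It read 532 and 537 CPM in VCaP shCt, and its place in these orders is not settled by the deposited length.

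Some members were above 5 CPM in 1 line and near 0 in the others. SLC39A2, a plasma membrane importer, was at 13.03 and 9.79 CPM in VCaP shCt and at most 0.178 in the LNCaP and SW13 libraries. SLC30A2, which loads zinc into secretory vesicles, was at 23.3 and 23.7 CPM in VCaP shCt and at most 0.362 in the LNCaP and SW13 libraries. MT1E was at 21.9 and 20.04 CPM in VCaP shCt, at 0.101 and 0.262 in LNCaP Empty and at 0 in all 12 SW13 libraries. SLC30A8, the insulin granule transporter, was at 7.35 and 6.97 CPM in SW13 GFP Empty and at most 0.0765 in VCaP and LNCaP. SLC39A12, MT1A, MT1B, MT1H and MT1M had at most 1 read in any library. Vector, selection and culture differed between the lines, so these levels are a description.

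**Figure D1:**
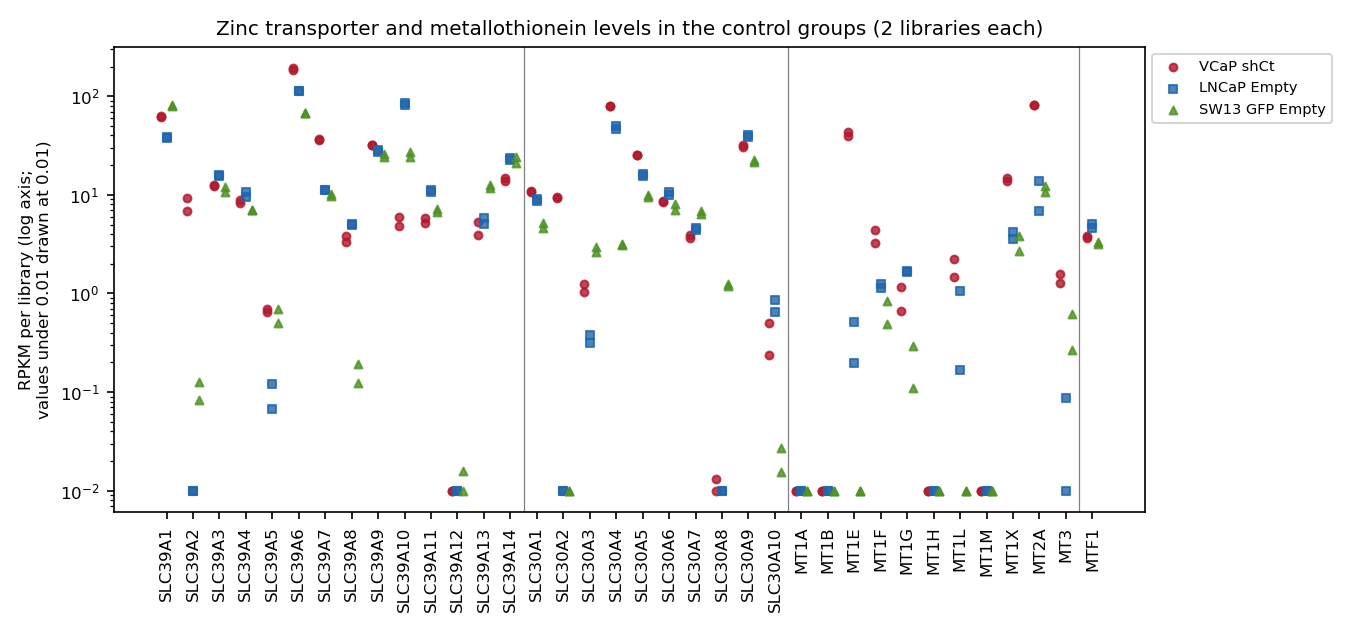
RPKM (log axis, values under 0.01 drawn at 0.01) of all 36 members in each library of VCaP shCt (red circles), LNCaP Empty (blue squares) and SW13 GFP Empty (green triangles). MT1E and SLC30A2 stand high in VCaP only, SLC30A8 in SW13 only, and SLC39A10 is higher in LNCaP than in VCaP.

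In VCaP, ERG knockdown lowered most of the zinc genes that changed. SLC39A11, an intracellular importer, fell 8.81-fold, the importer SLC39A1 3.34-fold, the vesicular exporter SLC30A2 3.05-fold and MT2A 2.09-fold. SLC30A4, SLC39A6, SLC39A13 and MTF1 rose. Of 30 members tested, 4 rose, 17 fell and 9 did not pass, beside 66.7% of all 16791 genes called in either direction, 29.3% higher and 37.4% lower. The share called was thus close to that of all genes, and the median change of the members was -0.47 against -0.05 over all genes. With library totals as the scale 8 rose and 13 fell. By family, 2 of 13 ZIP genes tested rose and 8 fell, 1 of 9 ZnT genes rose and 5 fell, and 4 of 7 metallothioneins fell. ARID1A knockdown gave another pattern, with 12 of 30 higher, 8 lower and 10 not called, beside 66.1% of all genes (32.9% higher, 33.2% lower), and a median of 0.12 against 0.01. There 6 ZIP genes rose and 4 fell, 4 ZnT genes rose and 2 fell, and 2 metallothioneins rose and 1 fell. Between the knockdowns, shARID1A against shERG, 14 were higher and 6 lower, beside 73.0% of all genes (36.8% higher, 36.2% lower). Library totals as the scale gave 14 higher and 9 lower there, beside 74.3% of all genes. The knockdowns share the shCt libraries, so their changes against shCt are not independent. ERG was also lower with shARID1A than with shCt (-0.58, adjusted p = 7.31e-10). SMARCA4 was higher with shERG (0.49) and lower with shARID1A (-0.38). The part of these shifts in the zinc gene changes was not tested.

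The greatest change in VCaP was that of SLC39A2, a plasma membrane importer. SLC39A2 read 13.03 and 9.79 CPM with shCt, 8.40 and 9.72 with shERG and 290.2 and 332 with shARID1A. It was low in 4 libraries and high in both shARID1A libraries. Between the knockdowns the change was 5.22 ± 0.09, adjusted p = 7.26e-22. The fall with shERG, -0.52 ± 0.13, was not called without the first shCt library (adjusted p = 0.0757). SLC39A1 read 197 and 190.1 CPM with shCt, 63.9 and 67.9 with shERG and 218 and 231 with shARID1A, with shERG below the other groups and no overlap. The change was -1.74 ± 0.05, adjusted p = 2.14e-17 with shERG and 1.89, adjusted p = 2.03e-18 between the knockdowns. Its neighbour CREB3L4, a transcription factor gene with which it shares windows, read 88.8 and 86.9 CPM with shCt, 36.5 and 38.1 with shERG and 71.8 and 75.1 with shARID1A and moved by -1.42 ± 0.06 with shERG. The part of shared reads in the SLC39A1 change was not tested.

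SLC39A11, an importer found at the Golgi and nucleus, read 16.1 and 14.3 CPM with shCt, 2.21 and 1.66 with shERG and 28.9 and 29.3 with shARID1A. All 3 groups separated, with shERG lowest and shARID1A highest. It fell with shERG (-3.14 ± 0.14, adjusted p = 1.26e-14) and rose with shARID1A (0.87 ± 0.09, adjusted p = 2.93e-08), and the knockdowns lay 16.1-fold apart. SLC39A7 followed the same order and read 532 and 537 CPM with shCt, 395 and 405 with shERG and 819 and 843 with shARID1A. Its change was -0.60 ± 0.04 with shERG and 0.57 ± 0.04 with shARID1A (adjusted p = 1.11e-10). SLC39A4, the intestinal importer mutated in acrodermatitis enteropathica, instead fell in both knockdowns. Its values were 22.04 and 23.3 CPM with shCt, 12.6 and 14.7 with shERG and 12.3 and 9.45 with shARID1A, with changes of -0.92, adjusted p = 1.16e-07 and -1.11, adjusted p = 1.08e-08.

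SLC39A13, an importer in vesicles and the Golgi, read 9.55 and 13.1 CPM with shCt, 18.2 and 16.96 with shERG and 24.9 and 27.6 with shARID1A and rose with shARID1A (1.14 ± 0.11, adjusted p = 4.36e-09). Its rise with shERG (0.45) was not called without the first shCt library (adjusted p = 0.0613). SLC39A3 read 48.3 and 49.9 CPM with shCt, 50.7 and 50.4 with shERG and 33.6 and 34.6 with shARID1A. It fell with shARID1A (-0.59, adjusted p = 1.90e-08), while its shERG change of -0.14 became 0.04 with library totals. SLC39A14, which also carries iron and manganese, read 73.9 and 78.1 CPM with shCt, 65.8 and 60.5 with shERG and 61.1 and 61.96 with shARID1A, and fell in both (-0.45 and -0.37, adjusted p = 4.23e-06). SLC39A8, a zinc and manganese importer, read 23.2 and 19.8 CPM with shCt, 17.1 and 17.6 with shERG and 18.3 and 18.04 with shARID1A, and its shARID1A change of -0.31 was not called without the first shCt library (adjusted p = 0.127). SLC39A6 read 709.8 and 685 CPM with shCt, 1053 and 1091 with shERG and 881 and 900.0 with shARID1A and rose in both knockdowns (0.44 and 0.28). SLC39A9 (ZIP9), which is also known to bind androgens, was not called in either (0.04, adjusted p = 0.453 and -0.11, adjusted p = 0.0505). It read 187 and 187 CPM with shCt, 214 and 223 with shERG and 184 and 181 with shARID1A, so the size of its shERG change depends on the scale.

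The exporters split, and the most abundant of them rose. SLC30A4, which loads lysosomes and vesicles, read 340.4 and 339 CPM with shCt, 631 and 634 with shERG and 290.2 and 274 with shARID1A. Both shERG libraries lay far above the rest, a change of 0.71 ± 0.04, adjusted p = 5.09e-12, and shARID1A was slightly below shCt (-0.33, adjusted p = 1.11e-06). SLC30A2 went the other way and read 23.3 and 23.7 CPM with shCt, 9.08 and 8.40 with shERG and 34.2 and 32.6 with shARID1A, a change of -1.61 ± 0.09, adjusted p = 5.62e-13 with shERG and 0.44, adjusted p = 2.57e-05 with shARID1A. SLC30A5, a Golgi transporter that pairs with SLC30A6, read 122 and 122 CPM with shCt, 78.7 and 78.3 with shERG and 148 and 155 with shARID1A, lowest with shERG (-0.82, adjusted p = 2.06e-12) and 1.07, adjusted p = 8.90e-15 between the knockdowns. SLC30A6 itself was not called in any VCaP comparison (0.06, 0.09 and 0.03). It read 43.2 and 42.3 CPM with shCt, 50.6 and 50.6 with shERG and 47.4 and 47.6 with shARID1A. Its CPM was thus above shCt in each knockdown library, and the size of its shERG change depends on the scale. SLC30A1, the plasma membrane exporter and a target of MTF1, read 22.2 and 21.7 CPM with shCt, 16.5 and 15.7 with shERG and 21.2 and 24.004 with shARID1A, lower with shERG (-0.63, adjusted p = 1.27e-06) and overlapping between shCt and shARID1A. Summed over the 10 exporters, the level was 686.2 ± 4.25 CPM (SD, n = 2) with shCt, 939.3 ± 0.708 with shERG and 675.4 ± 6.68 with shARID1A, highest with shERG as SLC30A4 was.

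With ERG knockdown MTF1 rose while MT2A and MT1E fell. MTF1 read 29.2 and 30.8 CPM with shCt, 60.9 and 62.4 with shERG and 26.1 and 28.5 with shARID1A. Both shERG libraries lay above the other 4 (0.86 ± 0.07, adjusted p = 1.30e-10 against shCt). MT2A read 33.9 and 33.9 CPM with shCt, 18.2 and 18.6 with shERG and 41.3 and 46.2 with shARID1A, lowest with shERG (-1.07 ± 0.08, adjusted p = 4.44e-11) and highest with shARID1A (1.36, adjusted p = 2.25e-13 against shERG). MT1E read 21.9 and 20.04 CPM with shCt, 15.8 and 16.996 with shERG and 24.6 and 25.1 with shARID1A and differed between the knockdowns by 0.72, adjusted p = 9.67e-08. MT1X, at 5.56 and 5.93 CPM with shCt and 7.59 and 7.28 with shERG, was not called (0.19, adjusted p = 0.257). Of 7 metallothioneins tested with shERG, 4 fell and 3 did not pass. MT1F and MT1L, each under 4 CPM, were among the 4 and lost the call without the first shERG library (adjusted p = 0.248 and 0.0953). MT1F also lost it without the first shCt library (0.213) and MT1L without the second (0.0938).

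**Figure D2:**
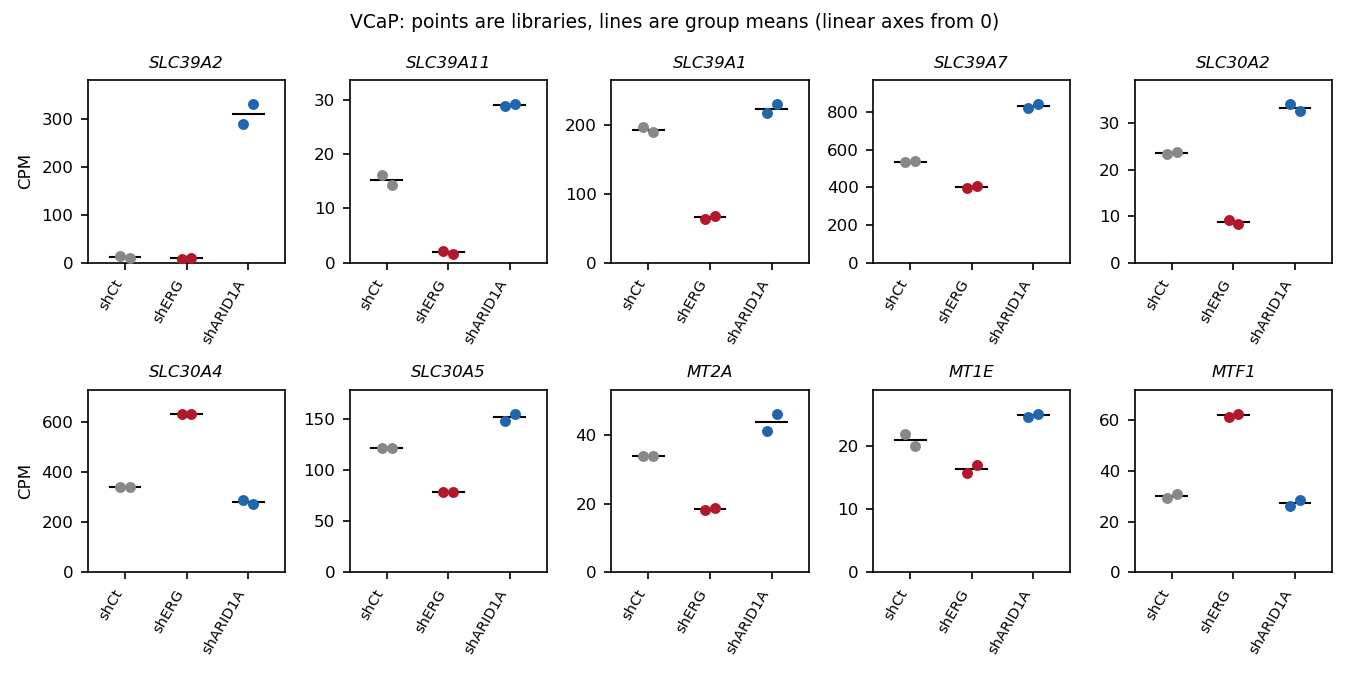
CPM in each VCaP library (points, n = 2 per group) with the group mean (line) for 10 members, each on a linear axis from 0. SLC39A2 is high with shARID1A only, SLC39A11, SLC39A1, SLC30A2, SLC30A5 and MT2A are lowest with shERG, and SLC30A4 and MTF1 are highest with shERG.

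The levels of luminal markers also differed between the VCaP groups. KLK2, a secreted kallikrein, read 6635 and 7263 CPM with shCt, 3483 and 3623 with shERG and 5128 and 5508 with shARID1A. KLK3, which encodes prostate-specific antigen, read 943 and 937 CPM with shCt, 237 and 255 with shERG and 364 and 389 with shARID1A. Both kallikreins were lower in every knockdown library than in either shCt library. FOLH1 read 828 and 815 CPM with shCt, 549 and 598 with shERG and 328 and 306 with shARID1A, lower than shCt in each knockdown library. TMPRSS2 read 205 and 213 CPM with shCt, 310.2 and 323 with shERG and 301 and 282 with shARID1A, higher than shCt in each. HOXB13 read 538 and 537 CPM with shCt, 335 and 349 with shERG and 671 and 672 with shARID1A, lower than shCt with shERG and higher with shARID1A. Stromal markers (COL1A1, COL3A1, DCN, LUM) summed to 28.8 and 29.4 CPM with shCt, 79.3 and 80.9 with shERG and 9.95 and 12.8 with shARID1A, most of it LUM and COL1A1. The part of these markers in the zinc gene changes was not tested.

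Promoter sequences are shown for 5 members, chosen with their values known. RefSeq promoter entries on GRCh38.p14 were found for 26 of 36 members (35 entries), and the 250 bases before the start were searched on both strands for the core of the metal response element, TGCACNC or TGCGCNC, and for 2 ETS-type words, CCGGAA and AGGAAG. Matches on opposite strands may overlap, while CCGGAA and AGGAAG cannot share their GGAA. The metal response core occurred in 15 of the 35 entries, CCGGAA in 9 and AGGAAG in 9, while 24.8%, 14.5% and 28.7% of all 35116 entries hold them. The first 3 sequences below have the metal response core in capitals (GNGTGCA or GNGCGCA where it lies on the other strand), and they show a metallothionein that fell with shERG, one that did not pass and an exporter that fell:
MT2A, chr16:56608334-56608583, plus strand: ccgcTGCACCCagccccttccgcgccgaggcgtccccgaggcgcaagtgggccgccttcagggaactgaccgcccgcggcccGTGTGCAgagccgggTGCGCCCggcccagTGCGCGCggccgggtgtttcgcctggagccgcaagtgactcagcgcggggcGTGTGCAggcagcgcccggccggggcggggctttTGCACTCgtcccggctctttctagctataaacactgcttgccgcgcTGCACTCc
MT1X, chr16:56682220-56682469, plus strand: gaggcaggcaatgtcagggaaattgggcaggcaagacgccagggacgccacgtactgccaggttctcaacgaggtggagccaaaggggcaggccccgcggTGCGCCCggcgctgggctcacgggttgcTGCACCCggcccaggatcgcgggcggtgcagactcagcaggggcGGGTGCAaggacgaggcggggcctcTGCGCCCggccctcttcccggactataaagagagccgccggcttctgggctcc
SLC30A2, chr1:26046119-26046368, minus strand: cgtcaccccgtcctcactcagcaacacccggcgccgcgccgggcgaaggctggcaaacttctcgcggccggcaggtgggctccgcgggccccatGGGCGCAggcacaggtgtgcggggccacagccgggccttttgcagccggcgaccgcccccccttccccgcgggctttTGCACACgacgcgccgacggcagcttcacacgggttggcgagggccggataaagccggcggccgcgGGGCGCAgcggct

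MT2A holds 7 matches, MT1X 4 and SLC30A2 3, while 1.58% of all entries hold 3 or more. MT1H, which had at most 1 read in any library, holds 8. SLC39A1, which fell with shERG, has 2 entries, one with 1 metal response core and the other with 1 AGGAAG. MTF1, which rose, holds no metal response core, 1 CCGGAA and 2 AGGAAG. SLC39A11, which fell most with shERG, and SLC39A2, which rose most with shARID1A, hold no metal response core in this window and 1 AGGAAG each, shown in capitals:
SLC39A11, chr17:73092689-73092938, minus strand: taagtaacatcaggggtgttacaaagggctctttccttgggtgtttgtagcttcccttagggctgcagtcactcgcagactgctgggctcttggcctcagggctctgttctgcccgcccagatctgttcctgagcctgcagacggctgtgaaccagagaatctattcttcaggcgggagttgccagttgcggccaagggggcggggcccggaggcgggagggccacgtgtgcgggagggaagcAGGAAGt
SLC39A2, chr14:20999043-20999292, plus strand: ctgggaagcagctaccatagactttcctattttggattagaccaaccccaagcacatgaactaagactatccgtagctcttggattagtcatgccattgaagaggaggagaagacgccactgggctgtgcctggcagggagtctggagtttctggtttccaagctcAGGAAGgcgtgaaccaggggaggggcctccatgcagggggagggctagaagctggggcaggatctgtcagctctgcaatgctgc

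A match describes the letters and is not evidence of binding, and no binding data were used here.

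In LNCaP, ERG and ETV1 each lowered SLC30A4, SLC39A10, SLC30A9 and SLC39A6, all abundant in this line, by 1.27 to 1.67-fold with ERG and 1.23 to 1.63-fold with ETV1. With ERG 4 of 25 members tested rose and 5 fell, beside 29.7% of all 16993 genes (15.4% higher, 14.3% lower). With ETV1 2 rose and 5 fell, beside 26.1% of all genes (13.2% higher, 12.9% lower). Both shares lay near the background, and both comparisons use the same Empty libraries. Between ERG and ETV1 directly, 2 members were higher with ERG, 23 did not pass, and 14.4% of all genes were called (7.87% higher, 6.50% lower).

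SLC30A4 read 213 and 198 CPM with Empty, 122 and 122 with ERG and 114 and 133 with ETV1 in LNCaP. The Empty libraries lay above all 4 others, a change of -0.74 ± 0.07, adjusted p = 0.00011 with ERG and -0.70 ± 0.07, adjusted p = 0.000167 with ETV1. SLC39A10 read 476 and 448 CPM with Empty, 336 and 319 with ERG and 301 and 324 with ETV1, again highest with Empty (-0.49 ± 0.05, adjusted p = 0.00024 with ERG and -0.53 with ETV1). SLC30A9, a mitochondrial zinc exporter, read 127 and 131 CPM with Empty, 94.5 and 88.5 with ERG and 97.7 and 87.8 with ETV1, changes of -0.49 and -0.44. SLC39A6 read 417 and 416 CPM with Empty, 334 and 317 with ERG and 336 and 327 with ETV1, with no overlap between Empty and either factor (-0.35 and -0.29). For these 4 genes ERG against ETV1 was not called, with changes from -0.05 to 0.04. In VCaP, where ERG was removed instead of added, SLC30A4 and SLC39A6 rose and SLC39A10 was not called. SLC30A9 was not called there either (0.06, adjusted p = 0.325). It read 103.87 and 100.1 CPM with shCt and 118.25 and 122.61 with shERG, without overlap. The size of the SLC30A9 change with shERG thus depends on the scale, and whether it rose is not settled. SLC39A11 and SLC39A1, which fell with shERG in VCaP, were not called with ERG in LNCaP (-0.04, adjusted p = 0.701 and -0.02, adjusted p = 0.832). SLC30A2 had 0 reads in the LNCaP Empty and ERG libraries. SLC39A8 and SLC39A7, which also fell with shERG, rose with ERG in LNCaP (0.67 and 0.15).

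SLC39A8, which carries manganese as well as zinc, differed between the factors. It read 30.2 and 29.9 CPM with Empty, 47.5 and 47.5 with ERG and 33.2 and 27.9 with ETV1, higher in both ERG libraries than in the other 4, a change of 0.67 ± 0.08, adjusted p = 0.000467 against Empty and 0.61 ± 0.08, adjusted p = 0.00167 against ETV1. SLC39A13 read 12.4 and 14.4 CPM with Empty, 19.3 and 15.8 with ERG and 15.97 and 19.7 with ETV1 and its changes of 0.41 and 0.45 were not called without either Empty library in turn, without the first ERG library (adjusted p = 0.291) or without the second ETV1 library (adjusted p = 0.235). SLC39A7 read 166 and 166 CPM with Empty, 179 and 187 with ERG and 178 and 171 with ETV1, and its ERG change of 0.15 lost the call without any 1 of the 4 libraries (adjusted p 0.0511 to 0.179). SLC39A9 read 158 and 163 CPM with Empty, 169 and 165 with ERG and 147 and 146 with ETV1, and the ERG to ETV1 change of 0.16 likewise depended on each library (adjusted p 0.0723 to 0.168). At low level the synaptic vesicle transporter SLC30A3 went from 0.655 and 0.786 CPM with Empty to 2.27 and 2.56 with ERG (1.74, adjusted p = 0.000794) and 1.93 and 2.19 with ETV1 (1.55, adjusted p = 0.00164). MT2A read 2.90 and 5.74 CPM with Empty, 2.71 and 4.02 with ERG and 3.81 and 3.24 with ETV1, with overlapping groups. The 4 metallothioneins tested had adjusted p from 0.236 to 0.652 with ERG. MTF1 read 40.6 and 37.03 CPM with Empty, 39.4 and 39.7 with ERG and 37.98 and 36.2 with ETV1 and was not called (0.04, adjusted p = 0.707 with ERG). The endothelial marker VWF also moved in these libraries, from 25.02 and 25.6 CPM with Empty to 60.96 and 52.6 with ERG and 59.8 and 56.5 with ETV1, while CDH5 and PECAM1 were each under 1 CPM. The stromal list read 91.3 CPM in the first Empty library and from 22.5 to 44.4 in the other 5, nearly all COL1A1. The part of these markers in the zinc gene changes was not tested.

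In SW13, BRG1 and its ATPase mutant each changed most of the zinc genes tested, as they did most of all genes. Against GFP, 76% and 68% of members were called, beside 62.4% and 58.7% of all genes. BRG1 raised MT2A 3.29-fold, and BRG1-K785R raised SLC39A14 2.31-fold. Both lowered SLC39A10, 1.72-fold and 1.91-fold, and both raised SLC30A3, 2.20-fold and 2.37-fold. Of 25 members tested with Empty, BRG1 against GFP had 9 higher, 10 lower and 6 not called, beside 62.4% of all 17018 genes (32.2% higher, 30.2% lower), and 11 higher and 5 lower with library totals. BRG1-K785R against GFP had 10 higher, 7 lower and 8 not called, beside 58.7% of all genes (32.3% higher, 26.4% lower). BRG1 against BRG1-K785R had 8 higher, 8 lower and 9 not called, beside 66.7% (32.6% higher, 34.1% lower), and 10 higher and 6 lower with library totals. With library totals BRG1 against GFP called 16 of 25 members, beside 61.9% of all genes. The 3 contrasts share libraries.

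ERG was compared with Empty beside each construct. Beside GFP, ERG raised 1 of 25 and lowered 5, with 26.0% of all genes called (12.6% higher, 13.5% lower). Beside BRG1-K785R it raised 7 and lowered 11, with 56.2% of all genes called (25.3% higher, 30.9% lower), or 8 and 8 with library totals. Beside BRG1 it raised 2 and lowered 7, with 45.4% called (22.6% higher, 22.8% lower). SLC39A1 and SLC39A14 fell with ERG beside each construct. In VCaP both fell with ERG knockdown as well (-1.74 and -0.45), so ERG added and ERG removed gave the same sign.

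SLC39A14 read 112 and 129 CPM with GFP Empty, 106 and 104 with GFP ERG, 272 and 256 with BRG1-K785R Empty, 133 and 124 with BRG1-K785R ERG, 124 and 125 with BRG1 Empty and 85.8 and 87.2 with BRG1 ERG in SW13. The BRG1-K785R Empty libraries were far above all others. The change was 1.21 ± 0.08, adjusted p = 2.46e-14 for BRG1-K785R against GFP, -1.29, adjusted p = 2.47e-15 for BRG1 against BRG1-K785R, and -0.09 and not called for BRG1 against GFP. ERG lowered it beside BRG1-K785R (-1.23 ± 0.08, adjusted p = 3.63e-14) and beside BRG1 (-0.48, adjusted p = 8.33e-06). Beside GFP its change of -0.26 was lost without the second GFP Empty library (adjusted p = 0.406) or without either GFP ERG library (adjusted p = 0.0838 and 0.109).

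SLC39A10 read 133 and 149 CPM with GFP Empty, 138 and 139 with GFP ERG, 66.1 and 73.6 with BRG1-K785R Empty, 116 and 104 with BRG1-K785R ERG, 90.01 and 89.9 with BRG1 Empty and 79.2 and 84.7 with BRG1 ERG. It was highest with GFP and lowest with BRG1-K785R Empty (-0.94 ± 0.08, adjusted p = 2.20e-11), and BRG1 also lowered it (-0.78, adjusted p = 7.35e-10). ERG raised it beside BRG1-K785R (0.47, adjusted p = 1.60e-05), while its changes were -0.08, adjusted p = 0.5 beside GFP and -0.09, adjusted p = 0.4 beside BRG1. The ERG effect beside BRG1 differed from that beside BRG1-K785R by -0.56, adjusted p = 0.000236. SLC39A11 read 18.8 and 19.98 CPM with GFP Empty, 16.5 and 17.2 with GFP ERG, 8.95 and 9.55 with BRG1-K785R Empty, 10.9 and 10.1 with BRG1-K785R ERG, 14.1 and 14.1 with BRG1 Empty and 13.6 and 12.5 with BRG1 ERG. It was lower with BRG1-K785R (-0.99, adjusted p = 5.43e-09) and with BRG1 (-0.60, adjusted p = 1.53e-05). SLC39A3 read 42.2 and 46.9 CPM with GFP Empty, 40.6 and 41.7 with GFP ERG, 68.1 and 61.8 with BRG1-K785R Empty, 51.6 and 50.8 with BRG1-K785R ERG, 40.4 and 37.3 with BRG1 Empty and 44.5 and 35.5 with BRG1 ERG. It was highest with BRG1-K785R Empty (0.62, adjusted p = 5.57e-07 against GFP and -0.96, adjusted p = 9.30e-11 for BRG1 against it). ERG lowered SLC39A3 beside BRG1-K785R (-0.53, adjusted p = 8.80e-06).

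SLC39A1 read 245 and 253 CPM with GFP Empty, 195 and 190.0 with GFP ERG, 246 and 237 with BRG1-K785R Empty, 167 and 163 with BRG1-K785R ERG, 231 and 222 with BRG1 Empty and 184 and 163 with BRG1 ERG. In each of the 3 settings both ERG libraries were below both Empty libraries, with changes of -0.42 ± 0.07, adjusted p = 8.07e-05 beside GFP, -0.74 ± 0.07, adjusted p = 4.38e-10 beside BRG1-K785R and -0.34 ± 0.07, adjusted p = 0.000282 beside BRG1. CREB3L4 read 9.04 and 7.99 CPM with GFP Empty, 9.15 and 9.39 with GFP ERG, 7.29 and 6.56 with BRG1-K785R Empty, 7.49 and 8.14 with BRG1-K785R ERG, 9.33 and 10.3 with BRG1 Empty and 11.2 and 10.8 with BRG1 ERG in the same libraries. SLC39A7 read 145 and 149 CPM with GFP Empty, 149.7 and 152 with GFP ERG, 242 and 225 with BRG1-K785R Empty, 229.6 and 224 with BRG1-K785R ERG, 218 and 203 with BRG1 Empty and 225 and 225 with BRG1 ERG. It was higher with BRG1-K785R (0.75, adjusted p = 1.68e-10) and with BRG1 (0.39, adjusted p = 2.62e-05) than with GFP. SLC39A13 read 31.1 and 28.99 CPM with GFP Empty, 32.6 and 34.8 with GFP ERG, 35.7 and 30.6 with BRG1-K785R Empty, 42.9 and 53.2 with BRG1-K785R ERG, 48.8 and 50.3 with BRG1 Empty and 49.2 and 50.7 with BRG1 ERG. It was higher with BRG1 than with GFP (0.59, adjusted p = 1.15e-06) or BRG1-K785R (0.36, adjusted p = 0.000654).

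SLC39A6 and SLC39A9, abundant in all SW13 groups, moved by small amounts. SLC39A6 read 246 and 249 CPM with GFP Empty, 256 and 250.3 with GFP ERG, 252 and 261 with BRG1-K785R Empty, 281 and 255 with BRG1-K785R ERG, 209 and 208 with BRG1 Empty and 247 and 238 with BRG1 ERG. It was lower with BRG1 Empty than with GFP Empty (-0.38, adjusted p = 3.07e-05) or BRG1-K785R Empty (-0.51, adjusted p = 2.14e-07), and ERG raised it beside BRG1 (0.26, adjusted p = 0.00331). SLC39A9 read 142 and 151 CPM with GFP Empty, 147 and 148 with GFP ERG, 171 and 178 with BRG1-K785R Empty, 148 and 143 with BRG1-K785R ERG, 134 and 132 with BRG1 Empty and 141 and 142 with BRG1 ERG. It was highest with BRG1-K785R Empty (-0.60, adjusted p = 8.66e-09 for BRG1 against it and -0.45, adjusted p = 3.12e-06 for ERG beside it).

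Among the SW13 exporters, SLC30A3 read 6.15 and 5.45 CPM with GFP Empty, 6.55 and 6.22 with GFP ERG, 14.1 and 11.7 with BRG1-K785R Empty, 9.57 and 10.5 with BRG1-K785R ERG, 14.3 and 13.6 with BRG1 Empty and 18.9 and 21.4 with BRG1 ERG. Both BRG1 constructs raised it (1.14 ± 0.13, adjusted p = 7.59e-09 for BRG1 and 1.24 ± 0.13, adjusted p = 1.53e-09 for BRG1-K785R). ERG then raised it beside BRG1 (0.58, adjusted p = 0.000104) and lowered it beside BRG1-K785R (-0.56, adjusted p = 0.000389). SLC30A1 read 10.4 and 9.25 CPM with GFP Empty, 10.04 and 9.31 with GFP ERG, 14.3 and 13.1 with BRG1-K785R Empty, 9.06 and 10.2 with BRG1-K785R ERG, 17.001 and 15.1 with BRG1 Empty and 12.8 and 12.6 with BRG1 ERG. It was higher with BRG1 (0.58, adjusted p = 7.71e-05) and with BRG1-K785R (0.57, adjusted p = 0.000137) and lowered by ERG beside BRG1-K785R (-0.70, adjusted p = 1.20e-05). Its ERG change beside BRG1 of -0.29 was not called without the first BRG1 Empty library (adjusted p = 0.312) or without either BRG1 ERG library (adjusted p = 0.0999 and 0.117).

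SLC30A7, a Golgi transporter that supplies secreted enzymes, read 52.5 and 55.8 CPM with GFP Empty, 59.3 and 62.2 with GFP ERG, 36.9 and 39.4 with BRG1-K785R Empty, 57.9 and 64.3 with BRG1-K785R ERG, 64.9 and 65.5 with BRG1 Empty and 49.3 and 54.6 with BRG1 ERG. BRG1-K785R Empty was the lowest group, and ERG raised it there (0.49, adjusted p = 5.48e-06). Beside BRG1 ERG lowered it (-0.28, adjusted p = 0.00387), a call lost without the first BRG1 ERG library (adjusted p = 0.0876). SLC30A9 read 70.8 and 72.8 CPM with GFP Empty, 48.5 and 50.1 with GFP ERG, 36.4 and 43.1 with BRG1-K785R Empty, 41.9 and 38.5 with BRG1-K785R ERG, 62.9 and 59.6 with BRG1 Empty and 51.4 and 48.3 with BRG1 ERG. It was highest with GFP Empty. It was lower with BRG1-K785R (-0.78, adjusted p = 1.73e-09) and with ERG beside GFP (-0.60, adjusted p = 3.67e-06), and its ERG change beside BRG1 of -0.25 was lost without the first BRG1 Empty library (adjusted p = 0.129) or the second BRG1 ERG library (adjusted p = 0.112).

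SLC30A5 read 45.6 and 47.4 CPM with GFP Empty, 37.98 and 38.4 with GFP ERG, 37.8 and 35.3 with BRG1-K785R Empty, 36.6 and 33.4 with BRG1-K785R ERG, 40.2 and 38.5 with BRG1 Empty and 38.9 and 40.9 with BRG1 ERG. It was highest with GFP Empty. It was lower with BRG1 (-0.37, adjusted p = 0.000232) and with ERG beside GFP (-0.34, adjusted p = 0.00301, and adjusted p = 0.0758 without the second GFP Empty library). SLC30A6 read 35.2 and 40.4 CPM with GFP Empty, 31.8 and 34.1 with GFP ERG, 35.8 and 40.9 with BRG1-K785R Empty, 29.1 and 27.7 with BRG1-K785R ERG, 37.7 and 33.2 with BRG1 Empty and 27.9 and 32.2 with BRG1 ERG. The BRG1-K785R ERG libraries were the lowest of its libraries beside that construct (-0.62, adjusted p = 3.91e-06).

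MT2A read 5.12 and 4.43 CPM with GFP Empty, 5.82 and 5.26 with GFP ERG, 6.17 and 7.02 with BRG1-K785R Empty, 5.97 and 7.63 with BRG1-K785R ERG, 16.3 and 18.1 with BRG1 Empty and 14.1 and 12.4 with BRG1 ERG in SW13. All 4 BRG1 libraries lay above all 8 others. The change was 1.72 ± 0.14, adjusted p = 2.70e-12 for BRG1 against GFP and 1.17 ± 0.13, adjusted p = 2.96e-09 against BRG1-K785R, and the mutant itself was 0.54, adjusted p = 0.00312 against GFP. ERG beside BRG1 gave -0.33, adjusted p = 0.0245, not called without the second BRG1 Empty (adjusted p = 0.193) or second BRG1 ERG library (adjusted p = 0.204). MT1X, from 1.56 and 1.10 CPM with GFP Empty to 3.57 and 3.09 with BRG1 Empty, rose with BRG1 as well (1.21, adjusted p = 0.000161). MTF1 read 25.03 and 26.8 CPM with GFP Empty, 28.3 and 31.5 with GFP ERG, 44.9 and 45.98 with BRG1-K785R Empty, 40.4 and 40.4 with BRG1-K785R ERG, 39.1 and 34.6 with BRG1 Empty and 33.2 and 34.5 with BRG1 ERG. It was highest with BRG1-K785R Empty (0.89 ± 0.09, adjusted p = 3.54e-10 against GFP) and also rose with BRG1 (0.37, adjusted p = 0.000568). ERG beside BRG1-K785R lowered it (-0.36, adjusted p = 0.000816), a call lost with library totals (adjusted p = 0.0873). MT2A, by contrast, was highest with BRG1.

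**Figure D3:**
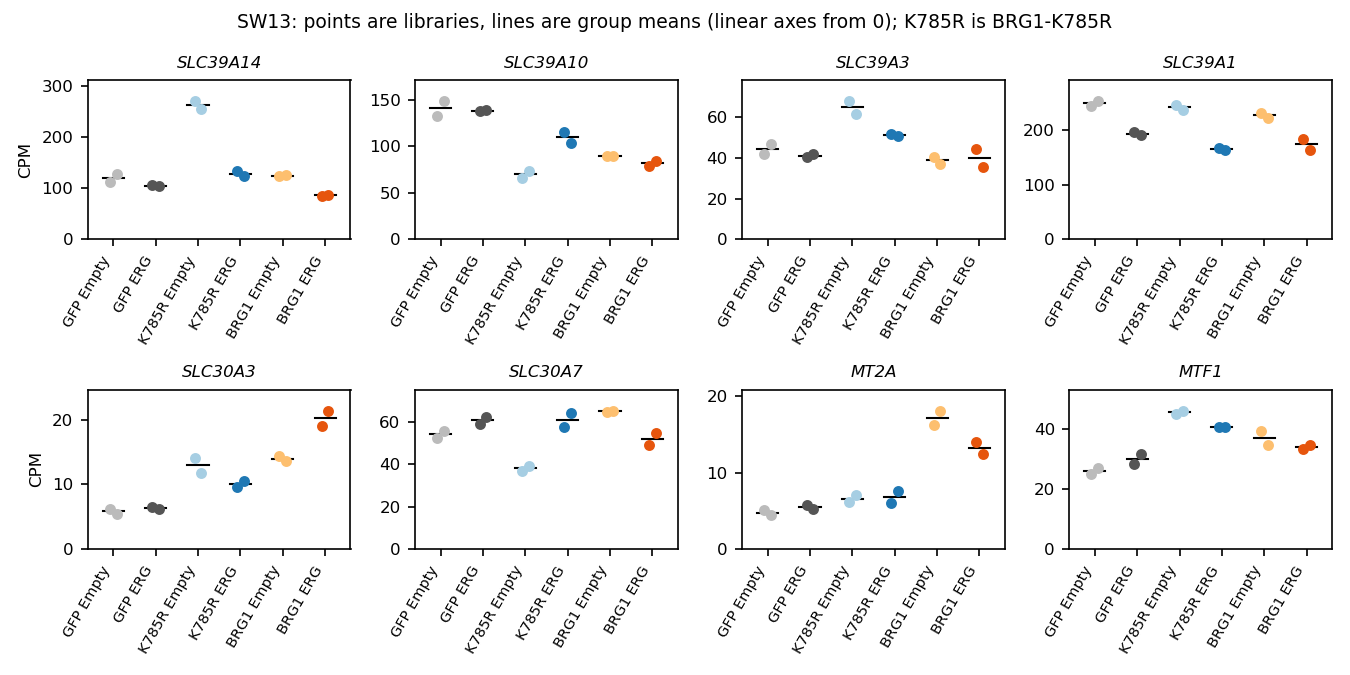
CPM in each SW13 library (points, n = 2 per group) with the group mean (line) for 8 members on linear axes from 0, K785R standing for BRG1-K785R. SLC39A14 and SLC39A3 are highest and SLC30A7 lowest with BRG1-K785R Empty, MT2A is high in the BRG1 groups, and SLC39A1 is lower with ERG than with Empty beside each construct.

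The level of the construct moved too. SMARCA4 read 2180 and 2040 CPM with BRG1-K785R Empty, 1417 and 1430 with BRG1-K785R ERG, 2150 and 2201 with BRG1 Empty and 1959 and 2264 with BRG1 ERG. Its ERG change was -0.76 ± 0.08, adjusted p = 6.88e-10 beside BRG1-K785R and 0.00 ± 0.08, adjusted p = 0.981 beside BRG1, a difference of 0.76 ± 0.11, adjusted p = 1.02e-06. The part of the construct level in the ERG effects was not tested.

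Whether the ERG effect itself changed with the construct was tested as a difference of effects. BRG1 minus GFP called 6 of 25 members, 4 higher and 2 lower, beside 37.8% of all genes (19.1% higher, 18.7% lower), and 1 higher and 4 lower with library totals. BRG1 minus BRG1-K785R called 14, 10 higher and 4 lower, beside 46.2% of all genes (25.8% higher, 20.4% lower), and 4 higher and 8 lower with library totals. Among the latter, SLC30A3 differed by 1.13 ± 0.17, adjusted p = 2.37e-06, SLC39A14 by 0.74 ± 0.11, adjusted p = 2.47e-06 and SLC30A7 by -0.77 ± 0.11, adjusted p = 1.57e-06. The differences against BRG1-K785R all rest on the BRG1-K785R Empty libraries, in which several members stood apart. Summed stromal, endothelial and immune markers also differed between SW13 groups. The summed stromal markers, of which COL3A1 gave most reads, went from 345 CPM in GFP Empty to 202 in BRG1-K785R Empty and 213 in BRG1 Empty, and the 3 endothelial markers went from 0 in GFP Empty to 2.16 in BRG1 Empty and 11.3 in BRG1 ERG. The 3 immune markers were at 29.7 CPM in GFP Empty, 34.3 in GFP ERG, 21.9 in BRG1-K785R Empty, 14.2 in BRG1-K785R ERG, 28.0 in BRG1 Empty and 18.6 in BRG1 ERG. Their part in the zinc gene changes was not tested.

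Over all 12 groups the summed metallothionein level was highest in VCaP. It was 64.5 ± 1.23 CPM (SD, n = 2) in VCaP shCt, 45.0 ± 1.28 in shERG and 80.3 ± 4.79 in shARID1A. LNCaP stayed between 6.80 and 7.61 CPM in its group means. The sum in SW13 was 6.76 ± 1.03 with GFP Empty, 21.4 ± 0.643 with BRG1 Empty and 17.7 ± 2.31 with BRG1 ERG. In VCaP shCt, MT2A gave 52.6% of metallothionein reads, MT1E 32.5% and MT1X 8.91%.

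**Figure D4:**
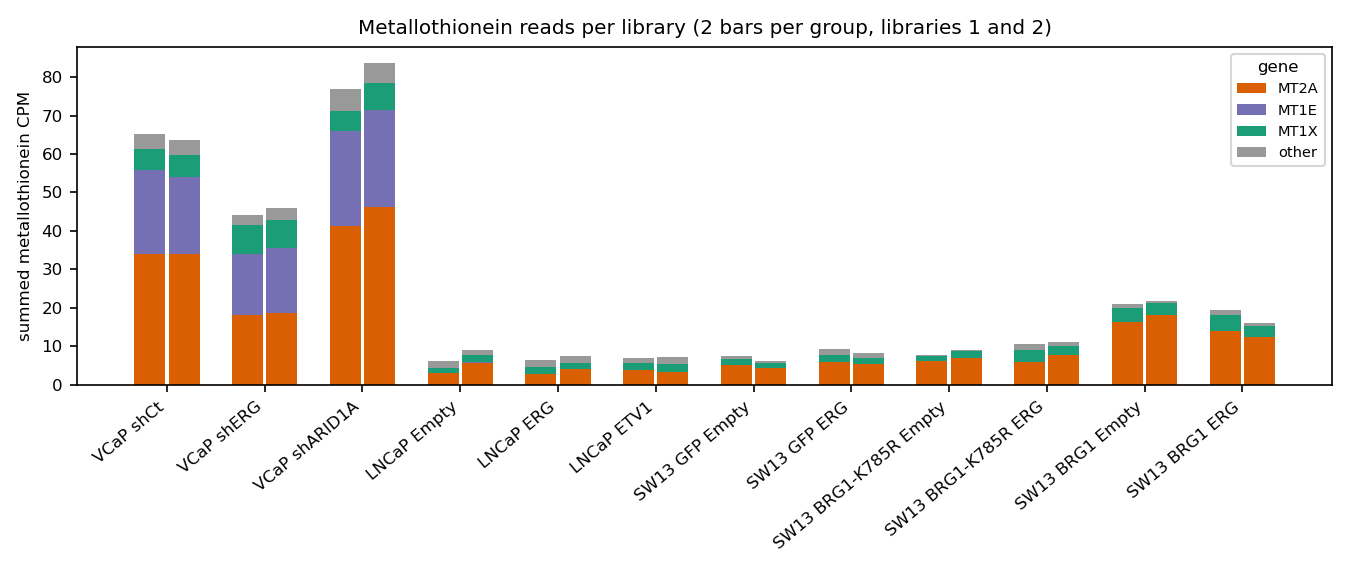
Summed metallothionein CPM in each of the 24 libraries (bars, 2 per group), divided into MT2A, MT1E, MT1X and the other 8 genes. VCaP bars lie between 44.1 and 83.7 CPM and contain MT1E, and SW13 BRG1 bars lie between 16.1 and 21.9 CPM, above the other SW13 bars.

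**Figure D5:**
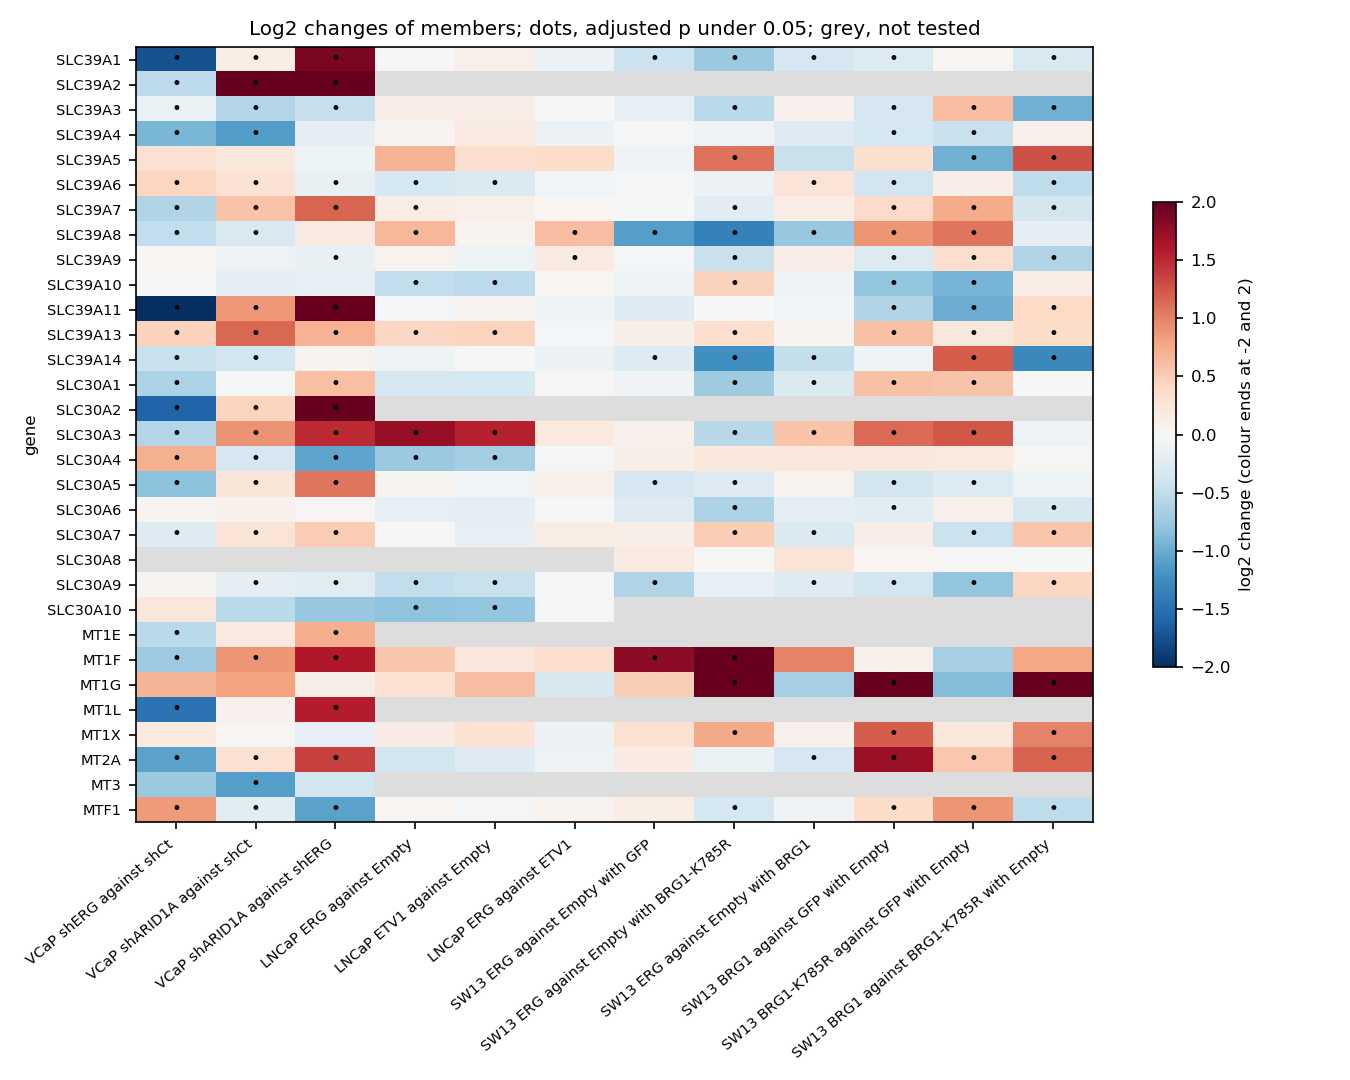
Log2 changes of members tested in at least 1 line (rows) in the 12 group comparisons (columns), red higher and blue lower in the first-named group, colours ending at -2 and 2, dots for an adjusted p under 0.05 and grey for members not tested in that line. SLC39A11, SLC39A1 and SLC30A2 are deep blue under shERG, and the LNCaP columns are the palest.

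Genes next to zinc handling were read from a list of 19 other metal genes and from named citrate genes. With shERG in VCaP, 4 of 19 other metal genes rose, 9 fell and 6 did not pass, beside 66.7% of all genes called (29.3% higher, 37.4% lower), and 6 rose and 8 fell with library totals. The share called was near that of all genes. Among the metal genes FTL, the ferritin light chain, changed by -1.23, adjusted p = 1.14e-15, and SLC31A1, the copper importer, by -0.66, adjusted p = 3.81e-10. Of 8 citrate genes tested, 6 fell and 2 did not pass, while 2 rose and 4 fell with library totals. Among them ANKH, which exports citrate and pyrophosphate, changed by -0.77, adjusted p = 1.23e-11. With shARID1A 12 of 19 rose and 5 fell, beside 66.1% of all genes (32.9% higher, 33.2% lower). Among them were HMOX1, haem oxygenase (2.29, adjusted p = 2.46e-12), and TFRC, the transferrin receptor (-1.46, adjusted p = 4.57e-17). Of the 8 citrate genes, 2 rose and 6 fell with shARID1A, beside the same 66.1% of all genes. CS, citrate synthase, changed by -0.95, adjusted p = 1.99e-14 with shARID1A. ANKH fell in both knockdowns (-0.95, adjusted p = 3.97e-13 with shARID1A).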

How the data were processed

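RNA was sequenced as 75-base single-end reads. The authors deposited, per library and gene, a read count, a gene length and an RPKM value. Per the submitters' processing notes, STAR 2.3.1 and the build hg19 were used. The program that counted reads, its gene models and its use of strand are not given in these sources. Recomputed from counts, library total and deposited gene length, the authors' RPKM came out equal (largest relative deviation 5.03e-06), and RPKM served to compare genes. Counts were fitted per cell line with edgeR 4.0.16 in R 4.3.3 (TMM, filterByExpr by group, all groups of a line in 1 fit) and tested with its two-sided quasi-likelihood test, with Benjamini-Hochberg adjustment over all genes tested and a threshold of 0.05. Residual degrees of freedom were 3 (VCaP), 3 (LNCaP) and 6 (SW13). Replicates had r of 0.996 to 0.998 in log2 CPM and differed beyond counting error (chi-square per degree of freedom 2.27 to 13.1). Fits were tested on simulated data.

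Some genes of the comparison lists are not reported here. Members and lists were chosen with earlier results of these data known. Values in every library are given for called members with at least 5 CPM in a compared group and no overlap, at most 10 per comparison by size of change, and for related lists up to 4 called genes by smallest adjusted p. Alternatives were RLE scaling, library totals, no filter, DESeq2 1.42.0, only the compared groups, a replicate block, leaving out each library and, chosen after seeing the data, leaving both BRG1-K785R Empty libraries out of the SW13 fit. Sequences came from RefSeq promoter entries and GENCODE 29 transcripts on GRCh38, and gene positions in hg19 were not used here. Read sharing counted exact 75-base windows on either strand. Tables were made in Python 3.11.15 (pandas 2.3.3) and figures with matplotlib 3.10.9.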

Additional observations from a re-analysis of the deposited data

Results flagged for a closer look

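Members whose ERG effect differed between SW13 settings, by the test of the difference of effects in edgeR, are given here as log2 differences. For BRG1 minus GFP, 6 members differed: MT2A by -0.50, SLC30A3 by 0.49, SLC30A5 by 0.40, SLC30A7 by -0.39, SLC30A9 by 0.34 and SLC39A6 by 0.28. MT2A, SLC30A3, SLC30A9 and SLC39A6 lost the call in at least 5 of the alternatives each. MT2A lost it without either GFP Empty, either GFP ERG, the second BRG1 Empty or the second BRG1 ERG library (adjusted p up to 0.186), SLC30A3 without any 1 of those 6 libraries (up to 0.123), SLC30A9 without the second GFP Empty, first GFP ERG, second BRG1 Empty or first BRG1 ERG library (up to 0.0958), and SLC39A6 without the second GFP Empty, either GFP ERG, either BRG1 Empty or the first BRG1 ERG library (0.0596 to 0.101).

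For BRG1 minus BRG1-K785R, 14 members differed. SLC30A3 differed by 1.13, SLC39A14 by 0.74, SLC39A3 by 0.62, SLC39A9 by 0.59, SLC30A6 by 0.43, SLC30A1 by 0.41, SLC39A1 by 0.40, SLC39A6 by 0.39, SLC39A7 by 0.37 and SLC30A5 by 0.32. MT1G differed by -3.45, SLC39A5 by -1.53, SLC30A7 by -0.77 and SLC39A10 by -0.56. MT1G and SLC39A5 were each under 2.1 CPM in every SW13 library. With library totals SLC30A1, SLC30A5, SLC30A6, SLC39A1, SLC39A6 and SLC39A7 lost the call (adjusted p = 0.41, 0.578, 0.268, 0.152, 0.167 and 0.215). With DESeq2 SLC30A1, SLC30A5, SLC39A5 and MT1G lost it (adjusted p = 0.141, 0.0751, 0.0575 and 0.0854). RLE scaling and only the compared groups removed the call of SLC30A1 (adjusted p = 0.0576 and 0.0526). SLC30A1 also lost it without the first BRG1-K785R Empty, first BRG1-K785R ERG, second BRG1 Empty or either BRG1 ERG library (0.0566 to 0.176), and SLC30A6 without the second library of any of the 4 groups (0.0572 to 0.0929). SLC30A5 lost it without the first BRG1-K785R Empty or the second BRG1-K785R ERG, BRG1 Empty or BRG1 ERG library (0.0741 to 0.164), SLC39A5 without the second BRG1-K785R Empty, BRG1-K785R ERG or BRG1 Empty library (0.0937 to 0.185), and MT1G without the first BRG1-K785R Empty or BRG1-K785R ERG or the second BRG1 ERG library (0.0554 to 0.0874).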

How the results depend on the processing

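No named change reversed in these alternatives. SLC39A3 with shERG, not among them, did so with library totals (0.04). Of 112 named changes, 111 kept their call with RLE scaling and with no filter, 110 with only the compared groups, 106 with DESeq2 and 103 with library totals, and of 512 left-out fits 454 kept it. Without both BRG1-K785R Empty libraries all 28 named changes tested there kept it. That fit covered only comparisons that do not use those libraries, so it cannot test the changes that rest on them. SLC39A8, under 5 CPM in SW13 and not among the 28, lost its call there for ERG beside GFP (adjusted p = 0.0566) and beside BRG1 (adjusted p = 0.0525). The count for LNCaP ERG against ETV1 went from 2 to 1 with only the compared groups and with every library left out in turn (1 to 1). Leaving out 1 library gave 2 to 6 members for ERG beside GFP (2 without the second GFP Empty and 3 without the first GFP ERG library) and 2 to 5 for BRG1 minus GFP (2 without the second BRG1 Empty or the first GFP ERG library, 3 without the second GFP Empty or second GFP ERG library). TMM-scaled CPM put summed metallothioneins at 68.3 in VCaP shCt, 42.1 in shERG, 10.5 in SW13 BRG1-K785R ERG and 20.2 in BRG1 Empty.

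Replicate numbers are shared labels only. Correlations of same-numbered deviations ran from -0.098 to 0.12. With the replicate block the LNCaP ERG against ETV1 count was 1, and 108 of 112 named changes kept their call. Each group had 2 libraries, and members under 5 CPM rest on few reads.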

Other observations

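In SW13 the 18 other metal genes tested were called at shares near or above those of all genes. For BRG1-K785R against GFP 9 rose and 3 fell, beside 58.7% of all genes called (32.3% higher, 26.4% lower), and 8 rose and 5 fell with library totals. On the log2 scale HMOX1, which degrades haem, rose by 2.27, adjusted p = 2.51e-15, FTL by 0.89, adjusted p = 1.23e-11 and FTH1, the ferritin heavy chain, by 0.76, adjusted p = 7.89e-11. For BRG1 against BRG1-K785R 4 rose and 11 fell, beside 66.7% of all genes (32.6% higher, 34.1% lower), and 5 rose and 7 fell with library totals, with HMOX1 at -3.01, adjusted p = 2.67e-18. ERG beside BRG1-K785R lowered 10 and raised 3, beside 56.2% of all genes (25.3% higher, 30.9% lower), HMOX1 by a change of -1.91, adjusted p = 1.90e-13. ERG beside BRG1 raised 9 and lowered 3, beside 45.4% of all genes (22.6% higher, 22.8% lower), HMOX1 by 1.54, adjusted p = 1.50e-10. Whether the list as a whole differed between these settings was not tested. The difference of those ERG effects for HMOX1 was 3.45, adjusted p = 1.15e-14. HMOX1 read 26.9 and 29.1 CPM with GFP Empty, 38.7 and 39.2 with GFP ERG, 162 and 94.2 with BRG1-K785R Empty, 38.4 and 39.5 with BRG1-K785R ERG, 19.5 and 17.3 with BRG1 Empty and 51.8 and 52.2 with BRG1 ERG, with both BRG1-K785R Empty libraries above the other 10 and wide apart from each other.

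In LNCaP, ERG raised 3 of 18 metal genes and lowered 2, beside 29.7% of all genes called, and ETV1 raised 1 and lowered 1, beside 26.1% (1 and 3 with library totals). The ERG share was near that of all genes and the ETV1 share below it. FTH1 was higher under each (0.59, adjusted p = 2.25e-05 and 0.33, adjusted p = 0.000629). ANKH was lower with ERG (-0.53, adjusted p = 0.000124) and with ETV1 (-0.31, adjusted p = 0.00221), and both comparisons share the Empty libraries.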
